A study of Mus musculus with 6 samples.

Results

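Tuft cells are rare chemosensory cells of the gut epithelium, and 9 genes that mark them were followed here in colon RNA of mice that gained much weight on a high-fat diet (obesity-prone, OP) or little (obesity-resistant, OR): *Pou2f3*, *Trpm5*, *Sh2d6*, *Avil*, *Dclk1*, *Alox5*, *Alox5ap*, *Ltc4s* and *Il25*. The members were taken by gene symbol from the 17778 genes of the deposited expression table, and all 9 were found in it. Colon RNA was sequenced from 3 OP mice and 3 OR mice, each as a library of its own. All were male wild-type C57BL/6J mice that received a high-fat diet for 16 weeks and were 21 weeks old. OP and OR name how strongly mice gained weight on the same diet, so the groups differ by outcome and not by treatment, and the mice fed a normal diet were not analysed here. The labels give the tissue as colon, without saying which layers, and all 12 genes of an epithelial reference list had a value of at least 74.4 FPKM (fragment counts scaled to transcript length and to the mapped total of the library) in every mouse.

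A tuft cell senses contents of the gut lumen through a taste-like cascade, in which G proteins and phospholipase C release calcium and open the cation channel TRPM5. It answers with the cytokine IL-25 and with cysteinyl leukotrienes, which act on innate lymphoid cells, and the IL-13 released by those cells in turn increases the numbers of tuft and goblet cells. The transcription factor POU2F3 is needed for the cells to form. In RNA from whole tissue, fewer tuft cells and less RNA in each tuft cell cannot be told apart.

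The 9 genes did not separate OP from OR mice. In the limma-trend fit over the 13520 genes with at least 0.5 FPKM in at least 3 mice, 0 of the 8 members tested passed the thresholds, which were a fold of 1.2 or more, or 0.83 or less, and an adjusted p (Benjamini-Hochberg over all genes tested) below 0.2, beside 0.0222% of all genes tested. At an unadjusted p below 0.05 the count was also 0 of 8, beside 4.03% of all genes. Values of the 2 groups overlapped in all 9 genes, and groups without overlap were found for 8.44% of all genes. What the 8 members shared instead was their lowest pair of mice. OP mouse 1 and OR mouse 2 held the 2 lowest values in each of them. This pair was noticed after the values were seen, and 26.4% of all genes tested also had it. Which of the 2 mice was lowest, and which mouse was highest, differed between the members.

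The promoters of these genes are shown first as a description. Their part in the lowest pair of mice that the members shared was not tested. The RefSeq table used for sequences held 7 windows for 6 of the 9 genes. Its build, GRCm38.p6, is not the build named in the study's methods. Each window ran from 250 bases before to 50 bases after an annotated start. *Pou2f3*, *Il25* and *Alox5ap* had no window. *Dclk1* had 2 windows, whose starts lie 219364 bases apart on chromosome 3, and the expression table gives a single value for both. The bases before the start are printed 5′ to 3′ on the strand of the gene. Capitals mark ATGCAA or its reverse complement TTGCAT, which is part of the octamer that POU factors of this family bind.
Avil, chr10:127000459-127000708, plus strand: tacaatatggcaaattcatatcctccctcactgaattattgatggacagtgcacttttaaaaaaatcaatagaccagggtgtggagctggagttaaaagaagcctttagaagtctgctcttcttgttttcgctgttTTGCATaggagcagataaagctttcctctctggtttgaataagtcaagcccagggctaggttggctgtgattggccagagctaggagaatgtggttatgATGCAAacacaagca
Trpm5, chr7:143094643-143094892, minus strand: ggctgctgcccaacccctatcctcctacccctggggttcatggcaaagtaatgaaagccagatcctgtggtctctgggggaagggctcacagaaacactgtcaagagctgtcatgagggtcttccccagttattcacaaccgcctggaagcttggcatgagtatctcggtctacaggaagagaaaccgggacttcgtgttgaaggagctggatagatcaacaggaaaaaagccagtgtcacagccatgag
Sh2d6, chr6:72520037-72520286, minus strand: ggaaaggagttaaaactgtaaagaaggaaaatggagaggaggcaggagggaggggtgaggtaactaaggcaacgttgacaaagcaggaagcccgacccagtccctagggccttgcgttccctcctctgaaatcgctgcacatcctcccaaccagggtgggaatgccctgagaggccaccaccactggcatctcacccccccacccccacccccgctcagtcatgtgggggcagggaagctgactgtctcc
Dclk1, upstream start, chr3:55242114-55242363, plus strand: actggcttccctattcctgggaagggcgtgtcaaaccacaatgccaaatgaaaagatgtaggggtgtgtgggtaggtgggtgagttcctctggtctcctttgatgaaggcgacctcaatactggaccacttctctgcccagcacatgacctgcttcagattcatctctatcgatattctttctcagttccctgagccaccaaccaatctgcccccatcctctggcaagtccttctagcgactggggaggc
Dclk1, downstream start, chr3:55461478-55461727, plus strand: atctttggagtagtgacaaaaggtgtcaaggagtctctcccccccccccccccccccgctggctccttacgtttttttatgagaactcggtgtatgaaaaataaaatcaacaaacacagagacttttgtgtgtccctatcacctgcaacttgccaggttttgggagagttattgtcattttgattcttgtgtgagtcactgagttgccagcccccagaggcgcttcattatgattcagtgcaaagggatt

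The full octamer ATGCAAAT, or ATTTGCAT on the other strand, was in 0 of the 7 windows and in 1.74% of all 32851 promoter windows of the table. The shorter ATGCAA, searched after the full octamer, was in 1 of the 7 windows, that of *Avil*, with 2 sites that begin 114 and 15 bases before the start, and in 10.7% of all promoters. Every full octamer also counts as an ATGCAA site. The PU box core GAGGAA, or TTCCTC, bound by ETS factors such as SPIB, was in 4 of the 7 windows, those of *Avil*, *Alox5* and *Ltc4s* and the upstream start of *Dclk1*, and in 28.3% of all promoters. The 7 windows held between 2 and 7 CG dinucleotides, at or under the median of 7 over all promoters.

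*Pou2f3* encodes the transcription factor that defines the tuft cell. It had 0.57, 1.63 and 2.12 FPKM in OP mice 1, 2 and 3 and 1.63, 1.04 and 1.35 FPKM in OR mice 1, 2 and 3. OP mouse 1 was lowest and OP mouse 3 highest, so the OP mice enclosed all OR mice. The mean was 1.44 ± 0.792 FPKM (SD, n = 3) in OP and 1.34 ± 0.295 FPKM (SD, n = 3) in OR mice. The log2 fold change OP/OR was 0.01 on the log2(FPKM + 1) scale, which understates changes of low genes, with a standard error (SE) of 0.28 and a 95% interval from -0.64 to 0.66.

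**Figure D1:**
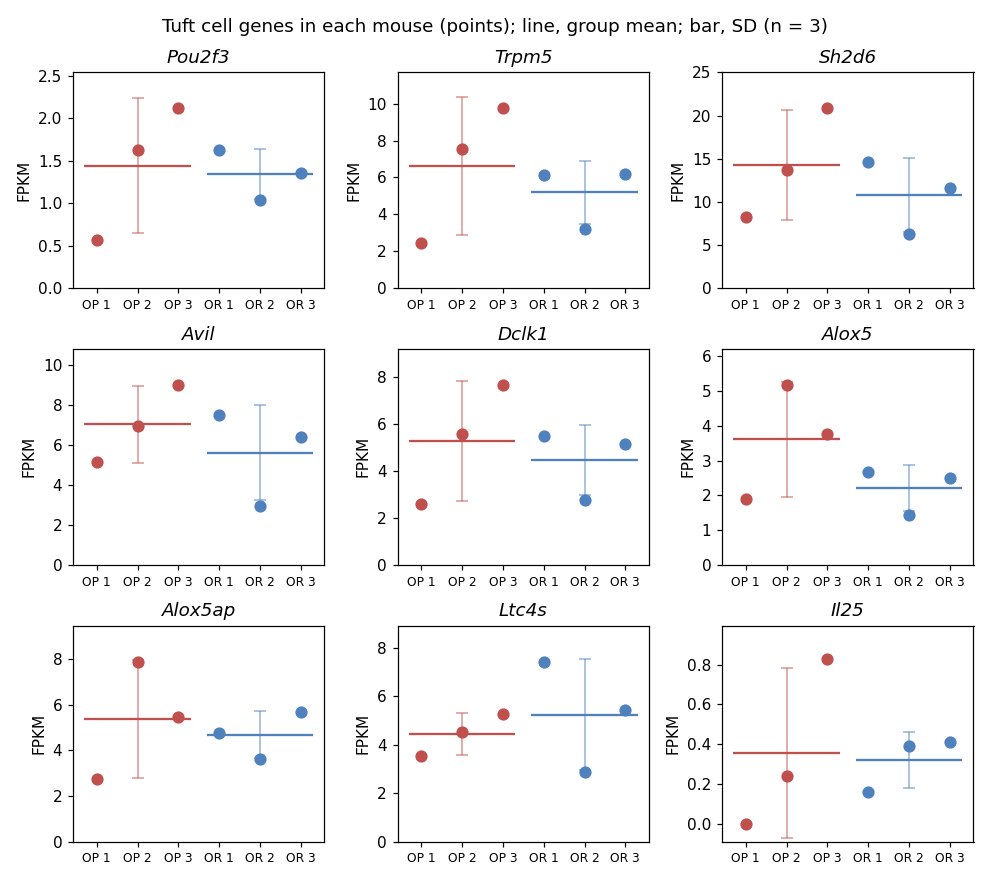
FPKM of the 9 tuft cell genes (vertical axes, 1 panel a gene, each with its own scale) in the 3 OP and 3 OR mice (horizontal axes), with points for single mice, lines for group means and bars for the SD (n = 3). OP mouse 1 and OR mouse 2 hold the 2 lowest points in every panel but that of *Il25*, and the groups overlap in all 9 panels.

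*Trpm5* encodes the calcium-activated cation channel at the end of the taste-like cascade. Its FPKM was 2.47, 7.55 and 9.77 in OP mice 1 to 3, and 6.14, 3.23 and 6.19 in OR mice 1 to 3. The highest value was 3.96 times the lowest, and both lay in the OP group. The mean was 6.60 ± 3.74 FPKM (SD, n = 3) in OP and 5.19 ± 1.69 FPKM (SD, n = 3) in OR mice, with a log2 fold change of 0.19 (SE 0.44, 95% interval -0.85 to 1.22, adjusted p = 0.961 by limma-trend).

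*Sh2d6*, which encodes an SH2 domain protein known as a tuft cell marker, had the highest mean of the 9 genes. It was measured at 8.19, 13.7 and 20.88 FPKM in OP mice 1 to 3, and at 14.64, 6.22 and 11.55 FPKM in OR mice 1 to 3. OP mouse 3 was highest and OR mouse 2 lowest, and OP mouse 1 lay below OR mice 1 and 3. The log2 fold change was 0.35 (SE 0.39, 95% interval -0.55 to 1.26, adjusted p = 0.945 by limma-trend).

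*Avil* encodes advillin, an actin-binding protein of the villin family that is also made by sensory neurons. Its values were 5.13, 6.94 and 9.01 FPKM in OP mice 1 to 3, and 7.49, 2.97 and 6.40 FPKM in OR mice 1 to 3. OR mouse 2 was lowest here, and OR mouse 1 exceeded all but OP mouse 3. *Dclk1* encodes a microtubule-associated kinase widely used to stain tuft cells and also expressed in neurons. It had 2.59, 5.57 and 7.67 FPKM in OP mice 1 to 3, and 5.49, 2.78 and 5.15 FPKM in OR mice 1 to 3. The order of the mice was close to that of *Trpm5*, with OP mouse 3 highest and OP mouse 1 lowest. The log2 fold changes were 0.32 (SE 0.33) for *Avil* and 0.15 (SE 0.37) for *Dclk1*.

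*Alox5*, *Alox5ap* and *Ltc4s* encode 5-lipoxygenase, its activating protein FLAP and leukotriene C4 synthase, which act one after the other from arachidonic acid to the first cysteinyl leukotriene. They are also expressed in macrophages, mast cells and other leukocytes. *Alox5* had 1.90, 5.18 and 3.75 FPKM in OP mice 1 to 3, and 2.67, 1.45 and 2.51 FPKM in OR mice 1 to 3. OP mice 2 and 3 lay above all OR mice, while OP mouse 1 lay within the OR range. The OP mean was 1.63 times the OR mean, with a log2 fold change of 0.48 (SE 0.32, 95% interval -0.26 to 1.22, unadjusted p = 0.172 and adjusted p = 0.945 by limma-trend). Without OP mouse 1 the log2 fold change of *Alox5* was 0.78, with an unadjusted limma-trend p of 0.0206 and an adjusted p of 1.00.

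*Alox5ap* had 2.74, 7.88 and 5.46 FPKM in OP mice 1 to 3, and 4.75, 3.64 and 5.68 FPKM in OR mice 1 to 3. As for *Alox5*, OP mouse 2 was highest. *Ltc4s* had 3.54, 4.51 and 5.27 FPKM in OP mice 1 to 3, and 7.43, 2.86 and 5.44 FPKM in OR mice 1 to 3. Its highest value lay in OR mouse 1, which set it apart from the other 8 genes, each highest in an OP mouse. The log2 fold change was 0.09 (SE 0.33) for *Alox5ap* and -0.14 (SE 0.31) for *Ltc4s*, the only negative one among the 8 tested.

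*Il25* encodes the cytokine by which tuft cells start the type 2 response. It was the lowest of the 9 genes and the only one under the filter on low values. It was listed at 0 FPKM in OP mouse 1, at 0.24 and 0.83 FPKM in OP mice 2 and 3, and at 0.16, 0.39 and 0.41 FPKM in OR mice 1 to 3. OP mouse 3 was highest, as for most of the other genes, but OR mouse 1 and not OR mouse 2 was second lowest. In the fit that kept low genes too, its 95% interval ran from -0.52 to 0.52 on the log2(FPKM + 1) scale. At values this low a difference between the groups was not detectable.

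**Figure D2:**
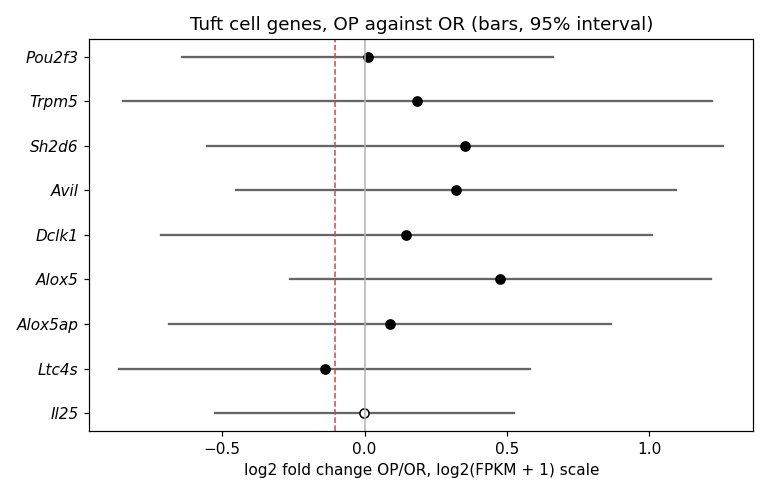
Log2 fold change OP/OR of the 9 tuft cell genes on the log2(FPKM + 1) scale (horizontal axis), with 95% intervals from limma-trend as bars; the open point is *Il25*, taken from the fit with no filter, the grey line is 0 and the dashed line is the median of all genes tested, -0.10. All 9 intervals include 0.

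The intervals show how much change these 6 mice leave room for on the log2(FPKM + 1) scale. Turned into folds on that scale, they ran from 0.556 to 2.33 for *Trpm5* and from 0.682 to 2.39 for *Sh2d6*. For *Pou2f3* the interval ran from 0.642 to 1.58. The scale understates changes of low genes, so this narrower interval does not mean that *Pou2f3* was measured more firmly. With a pseudocount of 0.1 the SE of *Pou2f3* was 0.49, against 0.28 in the main fit. Two-sided exact permutation tests of the FPKM means gave p between 0.3 (*Alox5*) and 0.9, and the smallest p that 3 mice against 3 allow is 0.1. Over the 8 members tested, 7 log2 fold changes were positive, beside 29.9% of all genes tested, and the median was 0.17, beside -0.10 over all genes. Median-of-ratios scaling moved the median of all genes to 0.01 and that of the members to 0.27. The sign of the members' median rested on single mice: without OP mouse 3 it was -0.049 and without OR mouse 2 it was -0.059, while without OP mouse 1 it was 0.50.

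Tuft cells are epithelial, so each gene was also set against the epithelium of the same mouse. From its log2(FPKM + 1) value the mean of the 12 epithelial reference genes, among them *Epcam*, *Cdh1* and *Krt8*, was subtracted. For *Trpm5* this relative level was -7.59, -6.26 and -5.60 in OP mice 1 to 3, and -6.20, -7.20 and -6.26 in OR mice 1 to 3. OP mouse 1 and OR mouse 2 were again the lowest pair and OP mouse 3 the highest. The subtracted mean was 9.38 in OP mouse 1 and 9.28 in OR mouse 2, against 9.03 in OP mouse 3. Between these mice the subtraction could only widen the gap, so the same order is no separate result. The differences OP minus OR in relative level lay between -0.25 (*Ltc4s*) and 0.36 (*Alox5*), the groups overlapped in all 9 genes, and the exact permutation p was between 0.5 and 1.0. Without OP mouse 1 the groups did not overlap in 2 of the 9 genes, and without OP mouse 3 in 1. Smaller groups separate more readily, and the share over all genes was not computed there, so nothing is read from these counts.

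The mean over the 6 mice was 12.5 ± 5.20 FPKM (SD, n = 6) for *Sh2d6*, 6.32 ± 2.08 for *Avil*, 5.89 ± 2.71 for *Trpm5*, 5.03 ± 1.79 for *Alox5ap*, 4.88 ± 1.92 for *Dclk1*, 4.84 ± 1.61 for *Ltc4s*, 2.91 ± 1.36 for *Alox5*, 1.39 ± 0.538 for *Pou2f3* and 0.338 ± 0.285 for *Il25*. FPKM is scaled to transcript length, so these levels can be set beside each other. The ranges over the mice overlapped for each pair of neighbours in this order. Within a mouse the order was firmer at its ends: *Sh2d6* was above *Avil*, *Alox5* above *Pou2f3* and *Pou2f3* above *Il25* in 6 of 6 mice. *Avil* was above *Trpm5* in 3 of 6 mice and *Dclk1* above *Ltc4s* in 2 of 6, so these neighbours had no fixed order.

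The members kept pace with each other to different degrees. *Dclk1* and *Trpm5* had the steadiest ratio of the 28 pairs of tested members, with an SD of 0.17 for the log2 ratio over the 6 mice, against SDs of 0.62 and 0.76 for the log2 FPKM of each gene alone. *Avil* and *Sh2d6* followed with 0.18. The least steady pair was *Alox5* and *Ltc4s* with 0.58. The ratio of *Ltc4s* to *Trpm5* ran from 0.539 in OP mouse 3 to 1.43 in OP mouse 1, while that of *Dclk1* to *Trpm5* stayed between 0.738 and 1.05. Against *Trpm5*, the SD of the log2 ratio was 0.23 for *Pou2f3*, 0.39 for *Alox5ap*, 0.42 for *Alox5* and 0.55 for *Ltc4s*.

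Genes with a profile like that of the tuft cell core were looked for by the distance between standardised profiles over the 6 mice, with the mean of *Trpm5*, *Pou2f3* and *Sh2d6* as the core. Among 13520 genes, genes near the core included *Zcchc8* (distance 0.188), *Pik3r5* (0.199), *Dclk1* (0.236) and *Actl6b* (0.266). *Dclk1* ranked 4, and *Pik3r5*, which encodes a regulatory subunit of PI3 kinase, belongs to the list of other tuft cell markers. *Pik3r5* had 2.27, 4.86 and 6.26 FPKM in OP mice 1 to 3, and 4.82, 2.57 and 4.38 FPKM in OR mice 1 to 3. Of the genes that define the core, *Trpm5* ranked 12, *Pou2f3* 61 and *Sh2d6* 124, so other genes came nearer to the core than these did. *Avil* ranked 1083, *Alox5* 1856, *Alox5ap* 2040 and *Ltc4s* 3238. With 6 points a near profile is a description, and many genes without a known place in tuft cells came as near.

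**Figure D3:**
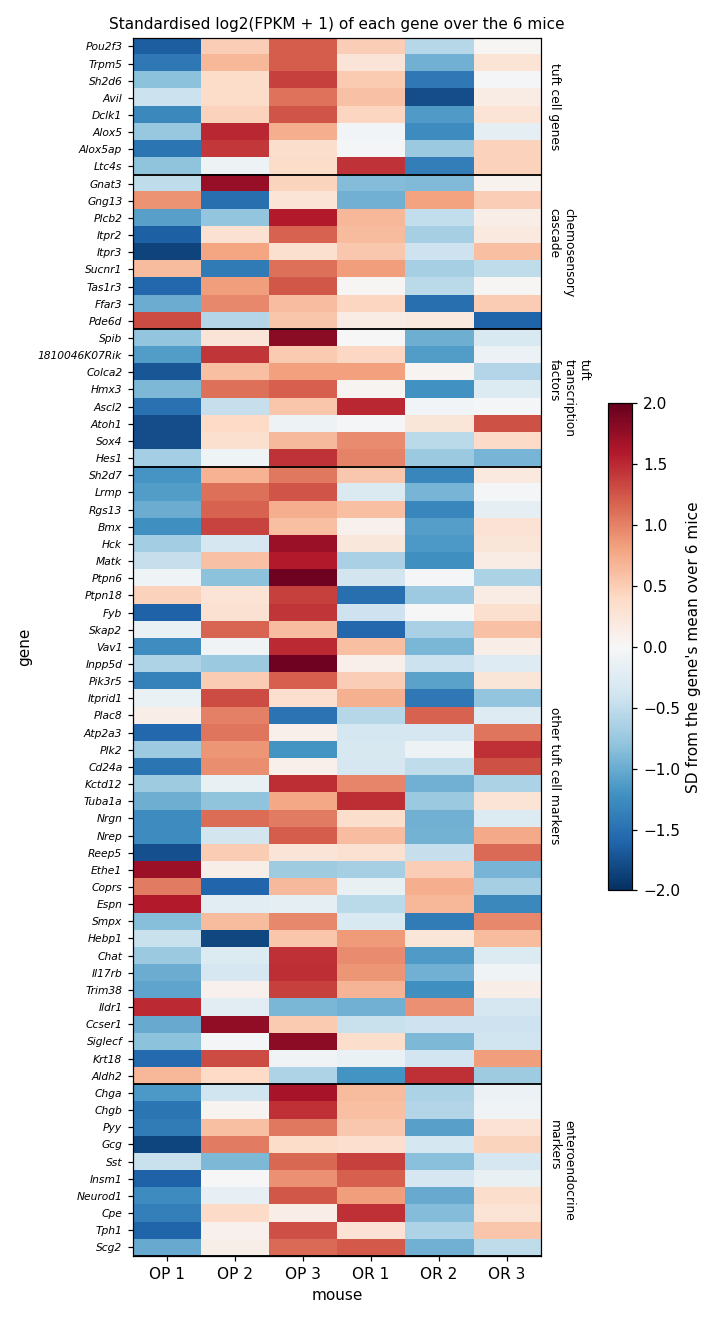
Log2(FPKM + 1) of each tested gene (rows), standardised over the 6 mice (columns) and shown as SDs from the gene's mean, for the tuft cell genes, 3 lists of further tuft cell genes and the enteroendocrine markers. The columns of OP mouse 1 and OR mouse 2 are mostly blue and that of OP mouse 3 mostly red, and in all 8 tuft cell genes the first pair are the lowest.

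Further genes of the tuft cell were read from 3 lists of 58 genes, of which 53 were tested. None of the 53 passed the adjusted threshold, 0 had an unadjusted limma-trend p below 0.05, beside 4.03% of all genes, and 36 had a positive log2 fold change. Their median was 0.10, beside -0.10 over all genes. OP mouse 1 and OR mouse 2 held the lowest pair of values in 26 of the 53, beside 26.4% of all genes tested.

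In the chemosensory cascade list, the 3 genes with the highest mean were *Itpr3*, *Pde6d* and *Itpr2*. *Itpr3* and *Itpr2* encode calcium channels of the endoplasmic reticulum that open on inositol trisphosphate. *Itpr3* had a mean of 24.4 ± 4.83 FPKM (SD, n = 3) in OP and 26.0 ± 2.13 FPKM (SD, n = 3) in OR mice, and *Itpr2* 4.17 ± 1.58 and 4.15 ± 0.753 FPKM (SD, n = 3). *Pde6d* had 14.1 ± 1.66 and 12.7 ± 1.57 FPKM (SD, n = 3). *Gnat3* and *Gng13*, named after their values were seen, encode gustducin and a G protein gamma subunit that work together in taste cells. *Gnat3* had 1.41, 3.39 and 2.11 FPKM in OP mice 1 to 3, and 1.19, 1.18 and 1.81 FPKM in OR mice 1 to 3. *Gng13* had 3.53, 0 and 2.05 FPKM in OP mice 1 to 3, and 0.41, 3.25 and 2.50 FPKM in OR mice 1 to 3. *Gng13* was thus highest in the mice that were lowest for most tuft cell genes, OP mouse 1 and OR mouse 2, and listed at 0 where *Gnat3* was highest.

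In the list of tuft cell transcription factors, which also holds factors of other epithelial lineages, *Hes1*, *Atoh1* and *Sox4* had the highest means. *Atoh1*, which directs cells to the secretory lineage, had 1.93, 24.46 and 14.58 FPKM in OP mice 1 to 3, and 15.63, 21.02 and 60.45 FPKM in OR mice 1 to 3. OP mouse 1 was lowest, OR mouse 3 highest, and the log2 fold change was -1.43 (SE 0.82, adjusted p = 0.945 by limma-trend). *Hes1*, a target of Notch signalling, had a log2 fold change of 0.22 (SE 0.34) and *Sox4*, a factor of early secretory cells, -0.41 (SE 0.52). *Spib*, named after its values were seen, encodes an ETS factor of tuft cells and of B cells. It had 17.14 FPKM in OP mouse 3, against 3.91 to 7.28 in the other OP mice and 3.45 to 6.32 in OR mice 1 to 3. The 8 B cell markers summed to 78.8 FPKM in OP mouse 3 and to between 5.47 and 10.8 FPKM in the other 5 mice, with none at 0 in any mouse. Their part in the *Spib* value was not tested.

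In the list of other tuft cell markers, *Plac8*, *Ethe1* and *Krt18* had the highest means. These are also strongly expressed by other colon epithelial cells, with group means from 798 to 1674 FPKM for *Plac8* and *Ethe1*. OP mouse 1 and OR mouse 2 were the lowest pair for *Krt18*, but not for *Plac8* or *Ethe1*. *Ethe1*, a mitochondrial sulfur dioxygenase, was highest in OP mouse 1 at 1260 FPKM. Over the list, 18 of 36 genes had this lowest pair, beside 26.4% of all genes tested. *Sh2d7* and *Rgs13*, named after their values were seen, were 2 of the 18. *Sh2d7* had 1.87, 6.05 and 7.34 FPKM in OP mice 1 to 3, and 5.53, 1.70 and 4.53 FPKM in OR mice 1 to 3. *Rgs13*, a regulator of G protein signalling, had 2.08, 6.88 and 5.50 FPKM in OP mice 1 to 3, and 5.15, 1.70 and 3.35 FPKM in OR mice 1 to 3. In both genes OR mouse 2 was lowest and OP mouse 1 next.

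The eicosanoid list holds the enzymes and receptors around the leukotriene pathway, and 1 of its 13 tested genes had an unadjusted limma-trend p below 0.05, lower in OP mice, beside 3.53% of all genes. *Tbxas1*, thromboxane synthase, had 0.50, 0.13 and 0.43 FPKM in OP mice 1 to 3, and 0.76, 0.99 and 1.25 FPKM in OR mice 1 to 3. The OP values did not overlap the OR values and were lower, as for 6.81% of all genes, with a log2 fold change of -0.57 (SE 0.18, unadjusted p = 0.0170, adjusted p = 0.945 by limma-trend). For *Tbxas1* the unadjusted limma-trend p was 0.0646 without OP mouse 2 and 0.0698 without OR mouse 3. The list's median log2 fold change was -0.18, beside -0.10 over all genes. *Hpgds* and *Ptgs1*, the tuft cell enzymes of prostaglandin synthesis, were named after their values were seen and had log2 fold changes of -0.16 (SE 0.40) and -0.25 (SE 0.20).

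The type 2 circuit list holds the cytokines, receptors and epithelial effectors around IL-25 and IL-13. Of its 23 genes 13 were tested and 1, *Il33*, had an unadjusted limma-trend p below 0.05, lower in OP mice, beside 3.53% of all genes. *Il33*, an alarmin of stromal and epithelial cells, had 0.72, 1.16 and 0.68 FPKM in OP mice 1 to 3, and 2.61, 1.67 and 2.13 FPKM in OR mice 1 to 3. Here too every OP value lay under the OR values, as for 6.81% of all genes, and the log2 fold change was -0.76 (SE 0.20, unadjusted p = 0.00574, adjusted p = 0.798 by limma-trend). *Il13* was listed at 0 in all OP mice and OR mouse 3, and at 0.14 and 0.13 FPKM in OR mice 1 and 2. The receptor genes *Il4ra* and *Il13ra1*, named after their values were seen, had log2 fold changes of -0.24 (SE 0.20) and -0.02 (SE 0.18).

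**Figure D4:**
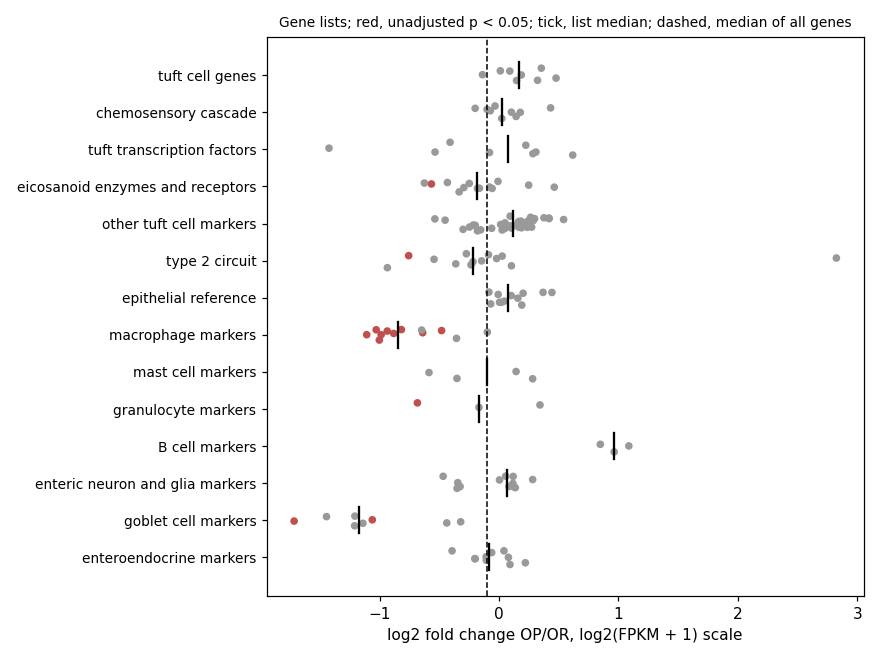
Log2 fold change OP/OR on the log2(FPKM + 1) scale (horizontal axis) of each tested gene, by list (rows), with a tick at each list's median and a dashed line at the median of all genes, -0.10. Red points have an unadjusted p below 0.05; the tuft cell genes hold none, and the macrophage markers hold 9.

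Markers of other cells that share member genes were set beside them. Of 12 macrophage markers, 9 had an unadjusted limma-trend p below 0.05, all lower in OP mice, beside 3.53% of all genes. Their median log2 fold change was -0.85. In 8 of 12 the groups did not overlap, with OP mice lower, as for 6.81% of all genes. Their summed level was 82.9 to 260 FPKM in OP and 184 to 252 FPKM in OR mice, and none was at 0. The largest term of the sum in every mouse was *Lyz2*, named after its values were seen. It had 101, 48.7 and 166 FPKM in OP mice 1 to 3, and 83.6, 118 and 103 FPKM in OR mice 1 to 3. Its log2 fold change was -0.10 (SE 0.40). The count was 4 of 12 without OP mouse 2 or OR mouse 2, and 5 of 12 without OP mouse 1 or OR mouse 3. It was 9 of 12 without OR mouse 1 and 11 of 12 without OP mouse 3. Over all 13520 genes tested, 477 were lower at this threshold with all mice. With a mouse left out this number ran from 231 without OR mouse 3 to 1104 without OP mouse 3. *Cd163*, a scavenger receptor of resident macrophages, had 0.44, 0.22 and 0.77 FPKM in OP mice 1 to 3, and 1.72, 2.45 and 1.67 FPKM in OR mice 1 to 3, with an adjusted p of 0.668 by limma-trend. *Alox5* and *Alox5ap*, with OP means 1.63 and 1.14 times the OR means, had positive log2 fold changes that passed no test. The part of macrophages in their values was not tested.

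Of 11 mast cell markers in the table, 6 were at 0 in at least 1 mouse, and the summed level was 17.0 to 26.0 FPKM in OP and 16.8 to 41.7 FPKM in OR mice. The highest sum was in OR mouse 2, where *Ltc4s* was lowest. The largest term of the sum differed between mice, as seen after the values were known. It was *Mcpt1* in OP mouse 1 and OR mouse 2, at 7.98 and 18.77 FPKM. In OP mice 2 and 3 it was *Kit*, at 14.29 and 14.5 FPKM, and likewise in OR mice 1 and 3, at 11.62 and 24.92 FPKM. Because different genes led the sum in different mice, the sum is not read as a level of mast cells. Of 9 granulocyte markers in the table, 6 were at 0 in at least 1 mouse and 3 were tested. Of these 3, 1 had an unadjusted limma-trend p below 0.05, the eosinophil gene *Prg2* (0.0276, lower in OP mice), beside 3.53% of all genes. This p was above 0.05 without any mouse other than OP mouse 3, up to 0.0915 without OP mouse 2. *Csf3r* and *S100a8*, the others tested, had log2 fold changes of -0.17 (SE 0.18) and 0.34 (SE 0.47). *Il5ra*, too low to be tested, went the other way, with 0.04 to 0.16 FPKM in OP and 0 to 0.02 FPKM in OR mice. *Epx*, also too low, had means of 0.037 FPKM in OP and 0.08 FPKM in OR mice. All but *Prg2* were named after their values were seen. The part of mast cells and granulocytes in the *Alox5*, *Alox5ap* and *Ltc4s* values was not tested. The 13 markers of enteric neurons and glia, cells that can also express *Dclk1*, summed to 44.8 to 93.9 FPKM in OP and 44.8 to 94.9 FPKM in OR mice. OP mouse 3 and OR mouse 1 had the highest sums, and 5 of the 12 markers tested had their lowest pair in OP mouse 1 and OR mouse 2. Their part in the *Dclk1* and *Avil* values was not tested.

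Among other secretory cells, the enteroendocrine markers had the same lowest pair of mice as the tuft cell genes in 9 of 10, beside 26.4% of all genes. *Pyy*, a hormone of colon enteroendocrine cells, had 19.4, 119 and 179 FPKM in OP mice 1 to 3, and 112, 26.1 and 90.0 FPKM in OR mice 1 to 3. The goblet cell markers showed this pair in 0 of 8. Their log2 fold changes were negative in 8 of 8, with 2 of 8 at an unadjusted limma-trend p below 0.05, *Tff3* and *Zg16*, beside 3.53% of all genes, and 0 of 8 at an adjusted p below 0.2. At the unadjusted threshold the limma-trend count was 0 of 8 without OP mouse 1, OR mouse 2 or OR mouse 3, and 1 of 8 with median-of-ratios scaling. *Muc2*, the main gel-forming mucin, was 17.6 FPKM in OP mouse 1 and between 154 and 933 FPKM in the other mice. *Krt20*, a keratin of mature surface colonocytes, was highest in OP mouse 1 and OR mouse 2, with 1300, 937 and 406 FPKM in OP mice 1 to 3, and 403, 976 and 500 FPKM in OR mice 1 to 3. *Krt20* also belongs to the epithelial reference list. Its part in the tuft cell values of OP mouse 1 and OR mouse 2 was not tested.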

How the data were processed

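The authors deposited FPKM values, 1 column a mouse, rounded to 2 decimals. Per the labels and methods, SOAPnuke cleaned the reads, Bowtie2 placed them on mouse genes and RSEM gave the expression values. The versions and the gene set differ between the 2 sources. The submitters' processing notes also name HISAT2 2.0.4. Depth is unknown, since FPKM carries no read totals. FPKM summed to between 585350 and 600028 a mouse.

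The 2 groups were fitted on log2(FPKM + 1) with the limma-trend method of limma 3.58.1 in R 4.3.3, with group as the sole term, in place of the study's count test, since no counts were used here. Single values were compared by exact permutation tests (SciPy 1.17.1). The replicates are separate mice.

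The members and lists were chosen with earlier results of these data known. Named genes are the members, the genes of each list with an unadjusted p below 0.05 or otherwise its 3 highest, defining genes of other cell types that stand beside a member, and genes among the 5 nearest profiles, of which 1 is not reported here; others are marked as named after their values were seen. Alternatives were limma without trend, 2 other scalings, a pseudocount of 0.1, 2 other filters, sample weights, the replicate block, each mouse left out and *Epcam* as the sole reference. Protein sequences were not used here.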

Additional observations from a re-analysis of the deposited data

How the results depend on the processing

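The count of tuft cell genes at an adjusted p below 0.2 was 0 in the fit described and in the 14 alternatives (limma-trend, or limma in 1 of them). At an unadjusted p below 0.05 it was 0, except 1 without OP mouse 1, so it ranged from 0 to 1 with each mouse left out. With the replicate block, the paired fit, both counts were also 0. Mice that share a number are not the same animal, and correlations of their deviations from the group means were -0.14, -0.16 and 0.07, so the numbers were not used as pairs. Over all genes, 3 were lower in OP mice at the thresholds, against 0 with median-of-ratios scaling, 0 after rescaling to TPM, 0 with a pseudocount of 0.1, 0 with no filter, 0 with at least 1 FPKM in all 6 mice, 5 with sample weights, 0 with the replicate block and 0 to 1 with each mouse left out. The cause was not tested. Of the 111 values of single members under alternatives, 98 kept their direction and side of the threshold and 13 changed sign, 11 of them with a mouse left out. *Pou2f3* was -0.051 with a pseudocount of 0.1 and -0.0024 after rescaling to TPM. With each mouse left out, the log2 fold change ranged from -0.13 to 0.50 for *Dclk1*, -0.14 to 0.67 for *Trpm5*, -0.20 to 0.30 for *Pou2f3*, -0.20 to 0.43 for *Alox5ap*, -0.45 to 0.11 for *Ltc4s* and -0.011 to 0.54 for *Avil*. *Alox5* (0.23 to 0.78) and *Sh2d6* (0.03 to 0.68) kept their sign. *Il25* could be fitted only with no filter.

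Relative to epithelium, the difference with *Epcam* as the sole reference was 0.0069 for *Pou2f3* and 0.086 for *Alox5ap*, against -0.10 and -0.02 with the list. With each mouse left out it ranged from -0.36 to 0.45 for *Dclk1*, -0.37 to 0.62 for *Trpm5*, -0.42 to 0.25 for *Pou2f3*, -0.47 to 0.15 for *Il25*, -0.26 to 0.38 for *Alox5ap*, -0.63 to 0.052 for *Ltc4s*, -0.19 to 0.48 for *Avil* and -0.18 to 0.62 for *Sh2d6*. The number of genes whose groups did not overlap was 0, and 0 to 2 with each mouse left out. No share over all genes was computed to set beside these counts. The lowest sample weight, 0.332, was that of OP mouse 1. Depth is unknown, so counting error could not be given, and it bears most on *Il25* and *Pou2f3*.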

Other observations

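Some genes of the lists, all named after their values were seen, were high in a single mouse. *Mptx1*, a mucosal pentraxin, had 518 FPKM in OP mouse 2 and between 2.82 and 47.1 FPKM in the other 5 mice. *Ly6g*, a neutrophil marker, had 12.5 FPKM in OP mouse 2 and at most 0.65 FPKM in the others, and *Retnlb*, a resistin-like protein of goblet cells, had 447 FPKM in OP mouse 2 and between 3.93 and 172 FPKM in the others. Of the other granulocyte markers only *S100a8* was highest in OP mouse 2, at 1.90 FPKM. In that mouse *Csf3r* was at its lowest, 0.35 FPKM, *S100a9* was at 0.25 FPKM, and *Prg2* and *Mpo* were at 0. The B cell marker *Cd79a* had 39.8 FPKM in OP mouse 3 and between 3.05 and 5.67 FPKM in the others. These mice were also the ones with the highest values of *Alox5* and *Alox5ap* (OP mouse 2) and of *Trpm5*, *Sh2d6*, *Avil*, *Dclk1*, *Pou2f3* and *Il25* (OP mouse 3). The share of all genes that were highest in these mice was not computed, and a link between these values was not tested.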
